A study of Mus musculus with 6 samples.

Results

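The libraries described here are the 3 labelled WT among the 6 of the series, chosen by that label alone. They hold RNA of microglia sorted from brains of C57BL/6 mice of 4 to 5 weeks, genotype QKIfl/fl, in which both alleles of the Qk gene are floxed and no Cre allele is named. Brains were digested, myelin was removed on a 30% Percoll gradient, and cells were sorted by surface CD45 and CD11b. The labels name no treatment, no sex and no number of animals per library, so the spread between the 3 libraries may be partly or wholly technical. All 3 share the digestion and the sort, and all 3 carry the floxed alleles. The columns are lettered A, B and C, which match no number in the labels, and they are called libraries A, B and C here.

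Microglia are the resident macrophages of the brain. They depend on signalling through the receptor CSF1R, survey the tissue with motile processes steered by purinergic receptors such as P2RY12, and take up debris and synaptic material that is tagged by complement and broken down in lysosomes. Transcripts of homeostatic microglia, such as Tmem119 and P2ry12, are commonly used to tell them from other brain macrophages, and many of these transcripts are lost when the cells are activated or cultured.

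The 3 libraries held 67839380, 77199936 and 56988261 reads for A, B and C, recovered from the deposited values. The deposited values were scaled by the authors to nearly the same total in each library, 34360042 to 34360054. Levels of genes are given in length-scaled units: the deposited value divided by the transcript length in the table, scaled to a sum of 1000000 in each library. A count of 0 reads leaves room for up to 3 reads, which is 1.34 to 1.81 on the deposited scale, and this floor covers counting error only. Of 55304 genes, 14968 had a mean level of at least 1 and are called detected; 11570 of them were protein-coding, and 14191 reached that level in all 3 libraries. The number per library ran from 14761 to 15352. No read was counted in any library for 27306 genes. The quartiles of the detected genes were 4.95, 17.0 and 44.2 length-scaled units.

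The markers of the labelled cell type were present. All 34 of the homeostatic microglia genes were detected, with a median of 1060 length-scaled units against 17.0 for all detected genes, and 17 of them were among the 100 highest genes. Itgam, which encodes CD11b, one of the sorting proteins, stood at 1286, 1307 and 1232 in A, B and C. Its row shares 73.7% of its bases with Gm49368 on the same strand, so reads in the shared part could not be told apart. Ptprc, which encodes CD45, the other sorting protein, stood at 215, 223 and 190 at rank 630.

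Expression was concentrated in few genes. The 106 genes at 1000 or more held 35.7% of the length-scaled total, the 1434 genes from 100 to 1000 held 34.4%, and the 7831 genes from 10 to 100 held 27.3%. The 5597 genes from 1 to 10 held 2.29%. The 100 highest genes held 35.1% ± 0.888 (SD, n = 3) of the length-scaled total, and the 10 highest held 13.5% ± 0.376. By reads, without division by length, the 100 highest held 27.2% ± 0.576. The 2 rankings shared 72 of their 100 highest genes and 15 of their 20 highest.

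Cst3 was the highest gene on both scales. It encodes cystatin C, a secreted inhibitor of cysteine proteases, and lies on chromosome 2 from 148871722 to 148875576 of GRCm38, with 3 exons in the listed transcript. Its length-scaled level was 41000, 37690 and 39480 in libraries A, B and C, or 3.94% ± 0.166 of the length-scaled total. Its deposited values differed by at most 1.12 times between libraries, and the next row stood at 14520.

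**Figure D1:**
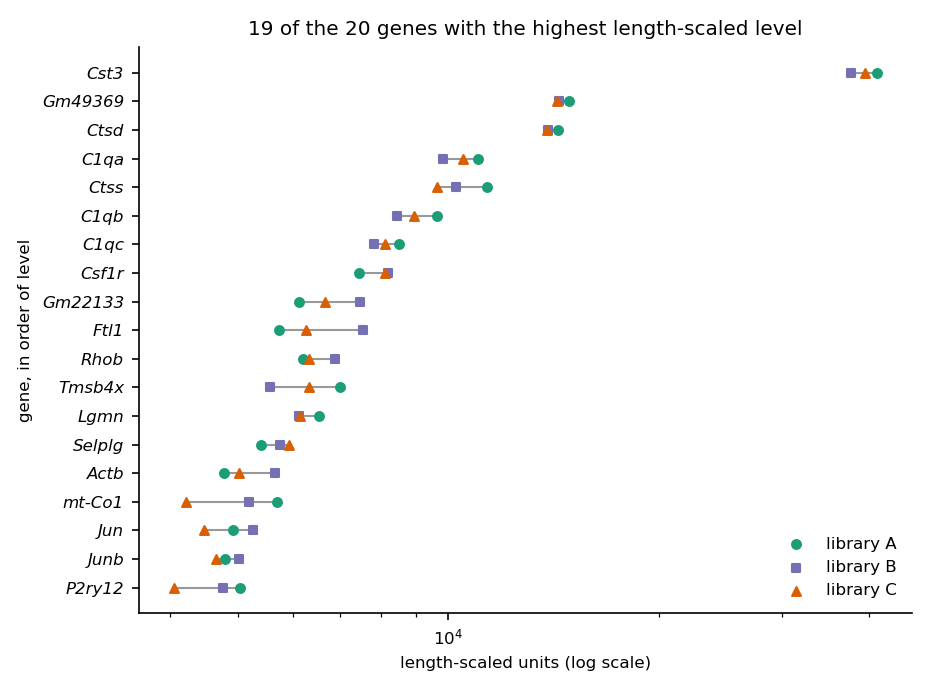
Length-scaled units (horizontal axis, log scale) of 19 of the 20 highest genes in each of the 3 libraries; grey bars join the lowest and highest library. Cst3 stands apart at 37690 to 41000, and the genes span down to P2ry12 at 4046 to 5029.

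Lysosomal proteins made up much of the top. The protease gene Ctsd, encoding cathepsin D (chromosome 7, 142375911 to 142388038), stood at 14330, 13900 and 13830. Ctss, which encodes cathepsin S, stood at 11360, 10260 and 9619, with A the highest and C the lowest. Lgmn, encoding the asparaginyl endopeptidase legumain, stood at 6523, 6108 and 6135, and Psap, the precursor of the saposins that help break down sphingolipids, at 4445, 4483 and 4385. Of 35 lysosomal genes 34 were detected, with a median of 388, and 12 were among the 100 highest genes. Together they took 6.11% ± 0.22 of the reads. Those under 100 were Ctsk, the cathepsin typical of osteoclasts, at a mean of 0.979, Gnptab, which makes the mannose 6-phosphate tag of lysosomal enzymes, at 19.2, and the sialidase gene Neu1 at 62.5. Lyz2, encoding lysozyme, had the widest spread of the lysosomal genes with a mean deposited value above 100: 505 in A, 262 in B and 373 in C.

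Complement and receptors of phagocytosis came next. The 3 chains of C1q, the recognition molecule of the classical complement pathway, are encoded side by side on chromosome 4 between 136880129 and 136898803. C1qa stood at 11010, 9814 and 10490 length-scaled units, C1qb at 9636, 8452 and 8923, and C1qc at 8498, 7825 and 8125. In all 3 libraries C1qa was the highest of the chains and C1qc the lowest, and all chains were highest in A and lowest in B. The adaptor genes Tyrobp and Fcer1g, whose products carry the signals of TREM2 and Fc receptors, stood at 2692 ± 225 and 1333 ± 53.9 (SD, n = 3). Trem2, a lipid-sensing receptor, was lower at 560 ± 60.0, and Fcgr3, an IgG receptor, stood at 2045 ± 56.5. All 29 genes of the list were detected, with a median of 318. C3, the central complement component, was near the lower end at 1.65, 1.54 and 3.50 in A, B and C. Cd36, a scavenger receptor, was the lowest of the list at 2.86, 0.629 and 1.30.

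Among the homeostatic genes, Csf1r, the receptor for the growth factors on which microglia depend, stood at 7438, 8206 and 8118. Selplg, encoding a ligand of P-selectin, stood at 5400, 5736 and 5913, and P2ry12, the ADP receptor, at 5029, 4762 and 4046. Sparc, a secreted matrix protein, stood at 4293, 4329 and 4220, and Cx3cr1, the receptor for the neuronal chemokine fractalkine, at 3593, 4044 and 3926. Tmem119, a surface protein of microglia, stood at 3178, 3126 and 3426. The lowest member was Sall3, a relative of the transcription factor gene Sall1, at 52.6 ± 3.54. The homeostatic genes together took 9.12% ± 0.11 of the reads. Their median coefficient of variation (CV, the SD over the mean of the deposited values of 3 libraries) was 4.65%, and none of the 34 differed 2-fold or more between libraries. Over all genes with a mean deposited value above 100 the 2-fold share was 1.86%, so none of 34 is near that share. Gpr34, a receptor for lysophosphatidylserine, had the highest CV of the list at 26.1%, with levels of 2100, 1770 and 1249.

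Of 22 purinergic receptors, adenosine receptors and enzymes that degrade extracellular nucleotides, 12 were detected, with a median of 1.54. P2ry12 was followed by P2ry13, another ADP receptor, at 1645 ± 68.7, Entpd1, the ectonucleotidase CD39, at 486, 507 and 487 in A, B and C, and P2ry6, the UDP receptor, at 312 ± 15.8. The adenosine receptor gene Adora3 and the ATP-gated channel gene P2rx7 stood at 151 ± 7.96 and 146 ± 8.27. P2ry1 was at 0.165 ± 0.163, and no read was counted for P2ry4 in any library. Nt5e, encoding CD73, which acts after CD39 in making adenosine, was at 0.139 ± 0.111. Detected and undetected members thus stood side by side in this family, over a range from no reads to 4612.

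All 29 transcription factor genes of myeloid and microglial identity were detected, with a median of 95.5. Klf2 was the highest at 817 ± 112, followed, among the factors named here, by Cebpa at 568 ± 53.8 and Sall1 at 477 ± 57.5. Irf8, which directs myeloid development, stood at 471, 481 and 466, and Irf5, a regulator of inflammatory genes, at 433, 466 and 479. Spi1, encoding PU.1, the ETS factor required for macrophage development, stood at 346, 341 and 352 at rank 362. Every factor of the list thus stood below 1000, unlike the lysosomal and complement genes at the top. Qk, the gene that is floxed in these mice and encodes an RNA-binding protein of splicing, stood at 133, 154 and 135, rank 1002. Among 25 genes of RNA-binding proteins of splicing, 24 were detected, with a median of 123, and the highest was Hnrnpa2b1 at 619 ± 60.9.

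**Figure D2:**
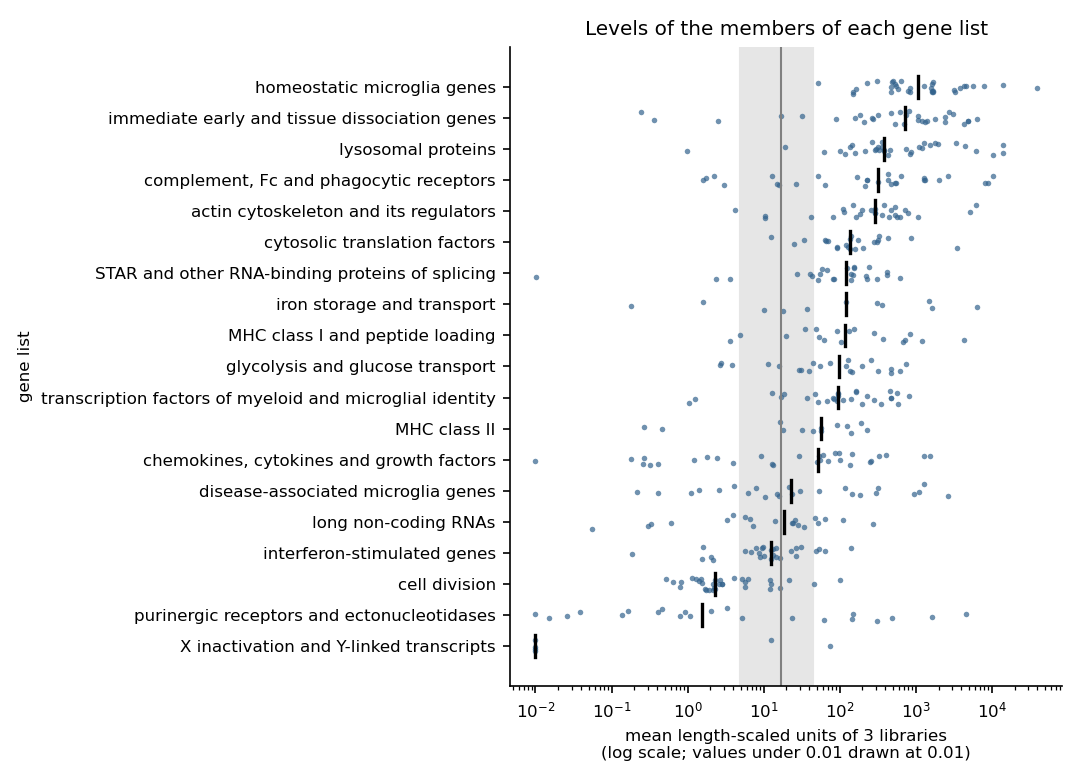
Mean length-scaled units (horizontal axis, log scale) of each member of the 19 gene lists; each point is a gene, black bars are list medians, and the grey band and line are the quartiles and median of all detected genes (4.95, 17.0 and 44.2). The homeostatic list has the highest median at 1060, and the cell division and purinergic lists lie below the grey band at 2.33 and 1.54, as does the X inactivation and Y-linked list, in which 2 of 6 genes were detected. Values under 0.01 are drawn at 0.01.

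Immediate early genes and other genes known to respond to tissue dissociation stood high. Of 32 such genes 30 were detected, with a median of 720, the second highest of the 19 lists, and 12 were among the 100 highest genes. The small GTPase gene Rhob stood at 6202, 6883 and 6324 length-scaled units. The AP-1 genes followed: Jun stood at 4921, 5259 and 4468, Junb at 4784, 5009 and 4648, and Fos at 3776, 2874 and 2616. Zfp36, encoding a protein that destabilises messenger RNA, stood at 3668, 5505 and 3908, and Jund at 3025, 2806 and 2501. Egr1, another immediate early transcription factor gene, stood at 628 ± 83.1, whereas Nr4a2 and Nr4a3 were at 0.364 ± 0.0662 and 0.243 ± 0.0698. The list took 4.48% ± 0.28 of the reads. Its median CV of 17.1% lay above the 6.84% of all genes with a mean deposited value above 100. All 3 libraries went through the same digestion, and no library without it was analysed here, so the part of the digestion in these levels was not tested.

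Among chemokines and cytokines, 24 of 30 genes were detected, with a median of 52.5. The chemokine genes Ccl4 and Ccl3 were the highest at 1554 ± 337 and 1289 ± 237, both highest in B. Tgfb1, encoding the growth factor that sustains the microglial state, stood at 390, 427 and 406. The inflammatory cytokine genes Il1a and Tnf stood at 328 ± 57.3 and 251 ± 63.3 and were lowest in C, at 262 and 179. Il1b stood at 50.9 ± 6.51 and Il6 at 9.14 ± 0.502. Igf1 was not detected, at 0.472, 0.397 and 0.349, and Bdnf had reads in 1 library alone, at a level of 0.0163 in B.

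Genes of the disease-associated state, an activated state described around amyloid plaques, had a median of 22.7, and 22 of 24 were detected. The list mixed high and low members. Tyrobp, Cd68, Cd9 and Apoe stood at 2692 ± 225, 1298 ± 69.6, 1097 ± 57.8 and 960 ± 247, of which Tyrobp and Cd68 also belong to the phagocytic list. Apoe, encoding a lipid carrier, stood at 1216, 722 and 941. By contrast Clec7a, a receptor for fungal glucans, stood at 21.4 ± 3.23, Itgax, encoding CD11c, at 14.9 ± 2.34, Cst7 at 10.6 ± 2.46, Spp1 at 8.05 ± 0.578 and Gpnmb at 0.219 ± 0.0358. Interferon-stimulated genes had a median of 12.4, with 27 of 28 detected. Bst2, encoding the antiviral protein tetherin, was the only one of them above 100 at 140 ± 9.67, and Isg15 stood at 13.2 ± 3.91. Of 33 cell division genes 29 were detected, with a median of 2.33. Pcna, the replication clamp, was the highest at 100.4 ± 4.52, and Mki67, a marker of cycling cells, stood at 3.31, 1.66 and 2.02. Of the 17 with a mean deposited value above 100, 13 were highest in A and lowest in B, with C between, against 15.9% of all genes above that mean.

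Antigen presentation differed between its 2 classes. All 18 genes of class I and its peptide loading were detected, with a median of 117. B2m, the invariant light chain, stood at 4548, 4407 and 4119, and H2-D1 and H2-K1, heavy chains, at 714 ± 27.2 and 674 ± 12.2. None of these 18 differed 2-fold or more between libraries, which is near the 1.86% of all genes with a mean deposited value above 100. Their CVs ran from 1.66% to 12.8%. The class II list of 13 genes also holds Cd86, which encodes no class II protein and had the highest mean deposited value of the list. Of the 13 genes in this list, 11 were detected, with a median of 56.2. The 4 genes H2-Aa, H2-Ab1, H2-Eb1 and Cd74, which encode the peptide-binding chains and their invariant chain, were the only 4 of its 11 genes above a mean deposited value of 100 that differed 2-fold or more. H2-Aa stood at 106, 16.8 and 46.8 length-scaled units. H2-Eb1 stood at 57.3, 8.62 and 29.5, H2-Ab1 at 94.8, 24.4 and 49.5, and Cd74 at 199, 64.3 and 113. All 4 were highest in A, intermediate in C and lowest in B. Ciita, which encodes the master regulator of these genes, followed the same order at 0.475, 0.106 and 0.227, below the level of 1 set for detection. H2-DMa and H2-DMb1, which encode the peptide editor DM, differed by 1.08 and 1.12 times. Cd74 and the H2-A and H2-E genes are also expressed by border-associated macrophages, monocytes and dendritic cells. The same order was found for 15.9% of all genes with a mean deposited value above 100. Above that mean it was found for 14 of 34 lysosomal genes, 10 of 26 complement and phagocytic genes and 10 of 19 disease-associated genes. It was not particular to such lists: 13 of 17 cell division genes, 10 of 23 cytosolic translation factor genes and 10 of 28 actin genes had it. It was rarer among homeostatic genes (4 of 34), identity factors (3 of 27), immediate early genes (1 of 30) and class I genes (1 of 18). Of the markers of border-associated macrophages, 2 of 4 above that mean had it. Of all 12 of these markers, 9 had it, most of them at low counts, and none was at 0 in all libraries. The 15.9% is no background for markers below that mean. Mrc1, encoding the mannose receptor, stood at 13.84, 11.97 and 12.49, Cbr2 at 5.91, 1.62 and 2.52, and Cd163, a haemoglobin scavenger receptor, at 1.98, 0.647 and 1.23. The list summed to 31983, 32918 and 31784 deposited units, or to 2092, 1382 and 1544 without Stab1, its highest member. The part of other macrophages in the class II values was not tested.

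Housekeeping classes took modest shares. The 80 cytosolic ribosomal protein genes were all detected, with a median of 436, and took 4.44%, 3.72% and 4.22% of the length-scaled total in A, B and C. By reads the share was 1.57% ± 0.16. Rps29 was the highest at 2316, 2013 and 2274, followed by Rplp1 at 2155, 1706 and 1979, and Rps15a was the lowest at 59.8. Of these 80 genes, 38 share at least 50% of the 50-base words of their listed transcript with the pooled listed transcripts of other genes, so single ribosomal protein levels are uncertain. Eef1a1, which delivers transfer RNA to the ribosome, stood at 3516 ± 190, with 60.6% of its words found elsewhere. In the actin list all 28 genes were detected, with a median of 292. Tmsb4x, which encodes the actin-sequestering thymosin beta 4, stood at 6985, 5554 and 6307, and Actb at 4777, 5652 and 5012. In glycolysis, Gapdh stood at 746 ± 24.1, with 82.5% of its words found elsewhere, and the fructose transporter gene Slc2a5 at 478 ± 14.1, whereas the glucose transporter genes Slc2a1 and Slc2a3 stood at 45.0 ± 4.54 and 3.82 ± 0.147. Iron storage was represented by Ftl1 at 5731, 7537 and 6263, with 83.3% of its words found elsewhere, and Fth1 at 1662 ± 44.5.

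**Figure D3:**
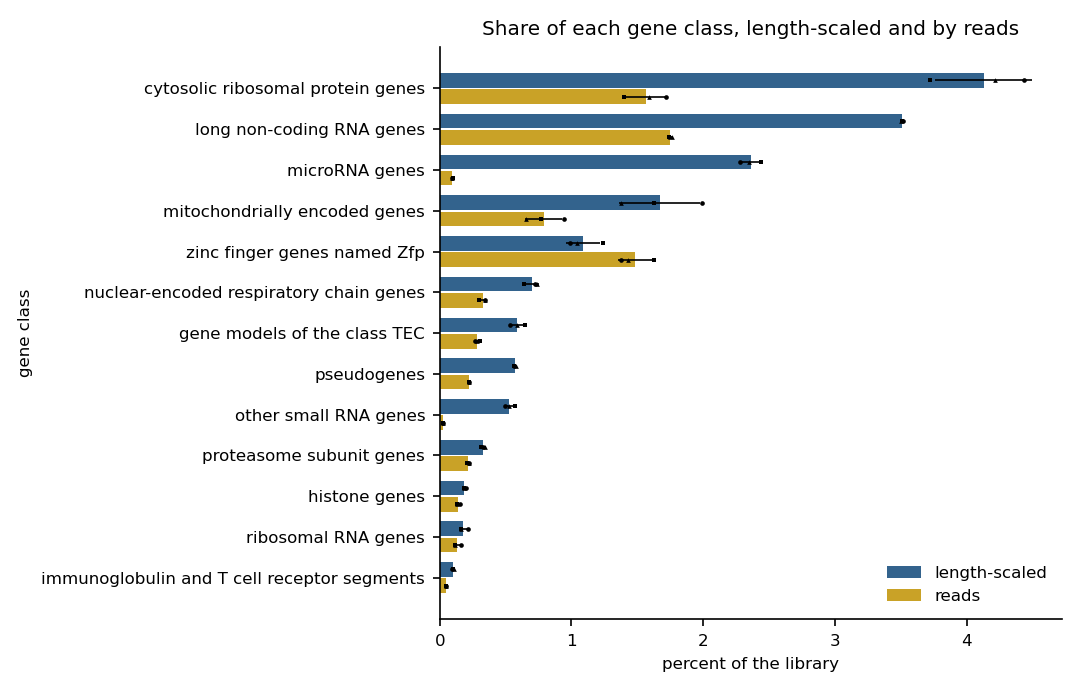
Percent of each library (horizontal axis) held by gene classes, length-scaled (blue) and by reads (yellow), without the class of all other nuclear protein-coding genes; bars are means, lines SD, and points the 3 libraries. MicroRNA genes hold 2.36% length-scaled but 0.0947% of the reads.

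Mitochondrially encoded genes took 1.99%, 1.63% and 1.38% of the length-scaled total in A, B and C, highest in A and lowest in C. By reads the share was 0.790% ± 0.14. The genes fell into a high and a low group. The cytochrome oxidase gene mt-Co1 stood at 5676, 5179 and 4211, mt-Cytb at 3672, 3031 and 2833, and mt-Nd1 at 2754, 2026 and 1601. In contrast mt-Atp6 stood at 32.9, mt-Co2 at 24.4, mt-Co3 at 22.4, mt-Nd4l at 10.2 and mt-Nd3 at 2.23, although the protein products of mt-Co1, mt-Co2 and mt-Co3 are subunits of one enzyme. For these 5 low genes, 98.0% to 100% of the 50-base words of the transcript are also present in listed transcripts outside the mitochondrial genome, against 0% for mt-Cytb and mt-Nd1. The pseudogene rows stood at 21.4 for Gm28661, the copy of mt-Co2, at 22.5 for Gm28437, the copy of mt-Co3, and at 21.2 for Gm10925, the copy of mt-Atp6. The copy of mt-Nd4l, Gm10222, stood at 10.5, and that of mt-Nd3, Gm28438, at 6.71, above mt-Nd3 itself. The relation was not complete. mt-Co1 shares 51.1% and mt-Nd4 62.2% of its words and both were high, and mt-Atp8 shares 0% and stood at 24.0. No source used here states how reads with several matches were counted, and the part of that in these levels was not tested.

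Some of the highest rows share bases with another row. Of the 100 highest rows 12 share 50% or more of their bases with another listed transcript. Gm49369, at rank 2 with 14520 ± 310, shares 80.4% of its bases with Ctsd on the same strand, and Gm22133, a microRNA row of 108 bases at rank 10, lies wholly inside Ftl1. All 5 of the 100 highest rows under 200 bases share bases in this way. Of the 396 microRNA rows that were detected, 134 lie wholly inside the transcript of another row. Total RNA reads of the host transcript can also fall in these 134 rows, and the source of the reads in the other microRNA rows was not tested. The microRNA share of 2.36% is therefore no measure of mature microRNA. No source used here states whether reads were counted by strand, so rows that overlap on opposite strands are uncertain too. Among long non-coding RNA genes, which held 3.51% ± 0.0076 of the length-scaled total, Malat1 stood at 224, 281 and 330. Xist, the RNA that coats the inactive X chromosome, stood at 62.1, 88.9 and 72.1 in all 3 libraries. The Y-linked genes Kdm5d and Eif2s3y had no read in any of the 3, and Ddx3y and Uty had reads in 1 library each, at levels of 0.0284 and 0.0244.

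Between the 3 libraries most genes differed little. Over 11582 genes with a mean deposited value above 100, the median CV was 6.84%, against 3.18% from counting error if read pairs are the counted unit, and 2.25% if single reads are. A CV under 10% was found for 8445 genes (72.9%), and over 50% for 152. At least 2-fold between the highest and the lowest library were 216 genes, 1.86% of those considered. The steadiest genes with a mean deposited value above 1000 were Dlg3, Dnajc13, Sox4 and Esrra, with CVs of 0.0532%, 0.0645%, 0.0687% and 0.105%. Dlg3, encoding a synaptic scaffold protein, had deposited values of 1343, 1343 and 1342, and Sox4, a transcription factor gene, of 5914, 5921 and 5920. These CVs lie below the counting error.

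Library C stood apart from the others in this set. It was the highest of the 3 for 188 of the 216 genes, A for 26 and B for 2, whereas over all 11582 genes C was the highest for 45.4%, A for 28.9% and B for 25.7%. These shares hold for the deposited scaling. Trimmed-mean factors were 0.986, 0.976 and 1.039 in A, B and C, and the shares were not computed with them. Library C was at least 2-fold over both others for 142 genes, 1.23% of those considered, while A was so for 4 genes and B for 0. The counts of 188 and 142 are partly set by the filter, since a gene can pass it through C alone. Ly6c1, with deposited values of 49.6, 49.4 and 206, did so. Without library C, 28 genes differed 2-fold or more between A and B. The biological coefficient of variation, the square root of the common dispersion from edgeR, was 16.2% with all 3 libraries and 10.7% without C. C also had the fewest reads of the 3 and B the most.

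**Figure D4:**
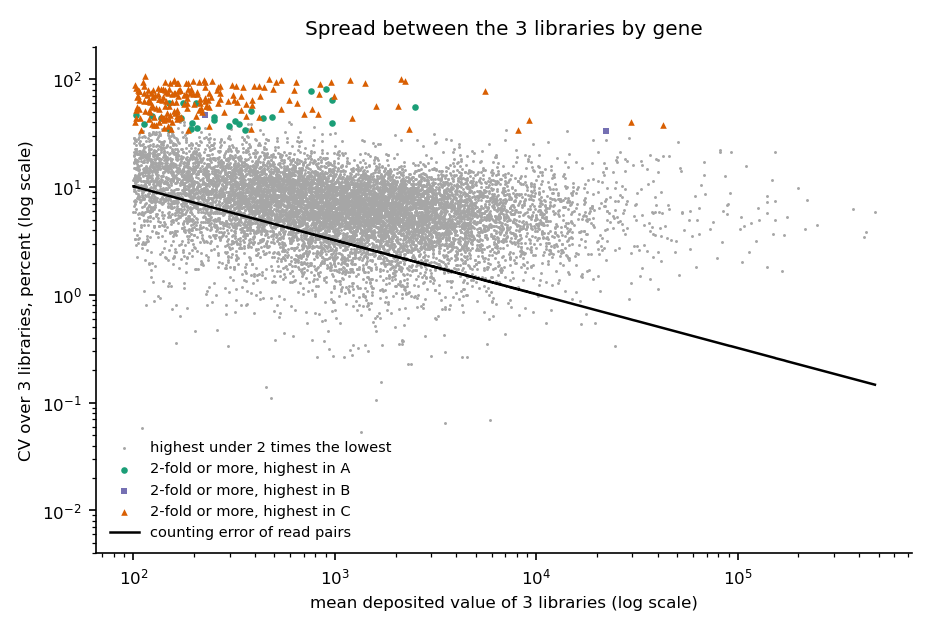
CV over the 3 libraries (vertical axis, percent, log scale) against the mean deposited value (log scale) for 11582 genes; coloured points differ 2-fold or more and are coloured by the highest library, and the line is the counting error of read pairs. Of the 216 coloured genes 188 are highest in C, a count partly set by the filter, since a gene can reach a mean above 100 through C alone.

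The 12 named genes with the largest ratio between libraries were all highest in C and lowest in B. Of these, 8 encode proteins of neutrophil granules or cytosol: Camp, S100a9, Ltf, Ngp, S100a8, Lcn2, Cd177 and Chil3. Camp, encoding the antimicrobial peptide cathelicidin, had deposited values of 301, 98.4 and 1012, a ratio of 10.3. S100a9, a subunit of calprotectin, had 1582, 468 and 4626, and its partner S100a8 had 1023, 358 and 2862. Ltf, encoding lactoferrin, had 766, 286 and 2500, and Ngp 1320, 530 and 4574. Anxa1, encoding an anti-inflammatory annexin that neutrophils also hold, had 131, 51.2 and 413. The rest were Opalin, Lgi3 and Pllp. Opalin, a myelin membrane protein gene, had 54.7, 32.9 and 254, and Pllp, encoding plasmolipin, 123, 55.2 and 382.

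Markers of other cell types were compared in the same way. Over 14 lists with 143 markers in all, 56 markers had a mean deposited value above 100; 36 of these differed 2-fold or more and 31 were at least 2-fold over both others in C, against 1.86% and 1.23% of all genes. The summed markers were highest in C for 10 of the 14 lists and lowest in B for 8. Among markers above a mean of 100, 11 of 11 for oligodendrocytes, 6 of 6 for neutrophils and 6 of 8 for astrocytes were highest in C and lowest in B, against 22.3% of all genes above that mean. So were 4 of 4 for oligodendrocyte precursors, 3 of 4 for pericytes and fibroblasts, 3 of 5 for monocytes and 3 of 7 for endothelial cells. The count was 0 of 4 for border-associated macrophages and 0 of 3 for B cells. It was 0 of 2 for neurons, 0 of 2 for choroid plexus and ependyma, and 0 of 1 for natural killer cells. All these marker counts are partly set by the filter, since a marker can pass it through C alone. Opalin, with deposited values of 54.7, 32.9 and 254, did so. The shares of all genes are also not matched for level. Among genes from 1 to 10 length-scaled units and above that mean, 6.09% differed 2-fold or more. The neutrophil markers summed to 5412, 1900 and 16983 deposited units in A, B and C, 8.94 times as much in C as in B. Their defining gene Ly6g stood at 1.498, 0.272 and 3.22 length-scaled units. The oligodendrocyte markers summed to 11212, 8560 and 24068. Mbp, a myelin protein gene among them, stood at 20.95, 20.72 and 25.64. The precursor markers summed to 487, 377 and 1310, the astrocyte markers to 9598, 7943 and 13616, and the endothelial markers to 2549, 2675 and 4526. The pericyte and fibroblast markers summed to 1885, 1495 and 4344. The monocyte list summed to 1421, 727 and 2394, but Chil3, Cd177 and Hp in it are also neutrophil genes, and Ccr2, its defining receptor, stood at 3.75, 2.53 and 2.47, highest in A.

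Other lists varied less or had low sums. The erythroid markers summed to 60.8, 122.8 and 230.9 in A, B and C, a ratio of 3.8 with A the lowest. The choroid plexus and ependyma markers summed to 1310, 1525 and 1264, lowest in C. The neuron markers summed to 855, 803 and 942, and 6 of 14 were detected, none above 5.18. The border-associated macrophage list was nearly all Stab1, a scavenger receptor gene with deposited values of 29892, 31536 and 30240. For T cells Cd3g, Cd8a, Trbc1 and Trbc2 had no read in any library, and for natural killer cells Gzma, Prf1 and Ncr1 had none. In the B cell list Ighm, the constant region of IgM, stood at 605, 638 and 689 length-scaled units, rank 179, and Cd79b at 40.5, 45.5 and 46.1, while Pax5 and Ms4a1 had no read. All 143 markers together took 0.270% of the mean deposited values of the 3 libraries. Stab1 and Ighm were the highest of them, with means of 30556 and 15470. The markers are only some of the RNAs of such cells, so this share does not measure the RNA of other cells in any library. Their part in the spread of other genes was not tested. In sorted cells in bulk, fewer cells of a type and less RNA per cell cannot be told apart.

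**Figure D5:**
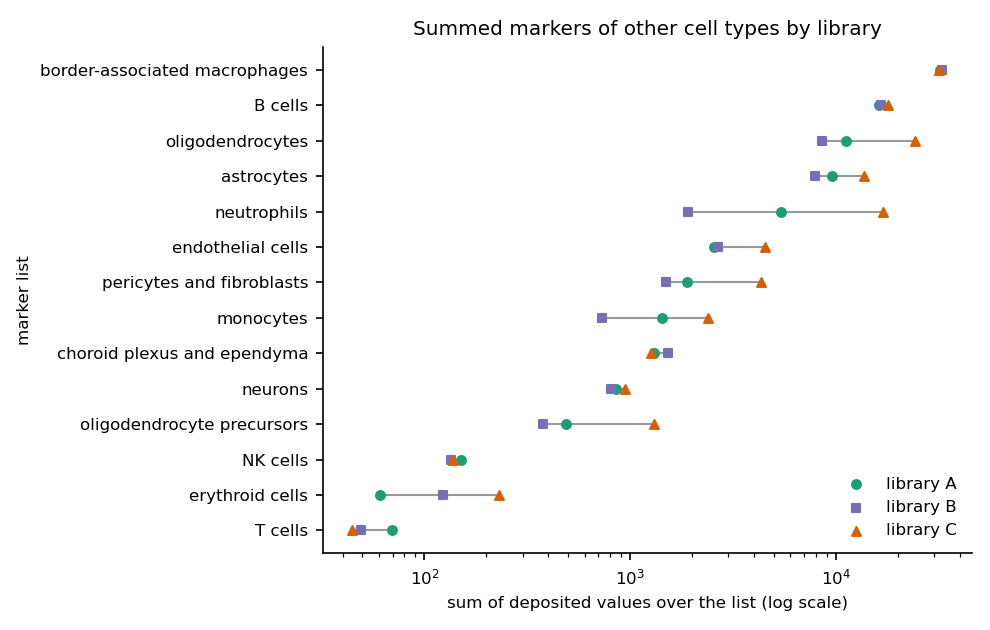
Sum of deposited values (horizontal axis, log scale) of the markers of 14 other cell types in each library; grey bars join the lowest and highest library. Neutrophil markers run from 1900 in B to 16983 in C, while the border-associated macrophage list lies between 31784 and 32918 in all 3 libraries.

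Library A was at least 2-fold under both others for 3 genes, Hspa1a, Gm20481 and Snord14d, and at least 2-fold over both for 4, H2-Aa, F13a1, Fam71a and Gm23935. F13a1, encoding a subunit of coagulation factor XIII, had deposited values of 252, 80.6 and 115. The heat shock gene Hspa1a had deposited values of 16167, 33854 and 38591 and stood at 376, 814 and 915 length-scaled units. Its near copy Hspa1b stood at 618, 1162 and 1419. Of the 50-base words of Hspa1a 58.8% are in Hspa1b, and of those of Hspa1b 62.3% are in Hspa1a, so reads in the shared stretches cannot be told apart, and Gm20481 lies inside Hspa1a on the opposite strand. Other stress genes, chosen after their values were seen, are given beside them. Hspa8, a constitutive chaperone gene of the same family, stood at 1349, 2113 and 2010, and Hmox1, the haem-degrading enzyme induced by oxidative stress, at 221, 421 and 457. Library A was the lowest for each of these. Of other protein-folding genes, Hspa5, Calr and Pdia3 were highest in A, and Hsp90aa1, Hsp90ab1, Hsp90b1 and Canx in B. Fos, Fosb and Dusp1 were highest in A, with less than a 2-fold difference: Fosb stood at 358, 225 and 206 and Dusp1, encoding a phosphatase that switches off stress kinases, at 3036, 2300 and 2061. Jun, Junb and Zfp36 were instead highest in B.

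Promoter sequence was compared with level for 11530 protein-coding genes with a RefSeq promoter (GRCm38.p6, 250 bases before to 50 after the start) whose start lay within 50 bases of the 5′ end of the listed transcript. Each motif was searched on both strands, and a match is a description, not a bound site. The shares describe these windows and their 95% exact binomial intervals cover counting error only. The TATA box, searched as TATAAA, was found in 12.5% of all windows. It was in 20.4% of windows of genes with a level under 1, in 7.36%, 5.93% and 8.84% of the bands from 1 to 10, 10 to 100 and 100 to 1000, and in 20.4% (10.2% to 34.3%) of the 49 genes at 1000 or more. The share was thus lowest among genes of middling level. In the bases before the start alone, it was 10.2% (3.40% to 22.2%) at 1000 or more and 5.59% from 10 to 100, and these intervals overlap. The ETS core, searched as CCGGAAGT, was in 6.30% of all windows: in 1.46% under 1, in 11.6% from 10 to 100, in 8.97% from 100 to 1000 and in 0 of 49 at 1000 or more, which allows up to 7.25%. The NRF1 core, searched as GCATGCGC, was in 1.36% under 1 and 6.89% from 10 to 100.

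The PU.1 core, searched as GAGGAAGT, was in 3.43% of all windows. It was in 3.42% (2.88% to 4.03%) of genes from 10 to 100 and in 5.72% (4.19% to 7.61%) of genes from 100 to 1000. With bands of equal size set by the deposited value, the latter share was 4.81% (3.41% to 6.57%), and the intervals overlap. It overlaps the ETS core in its last 6 letters. The cAMP response element, searched as TGACGTCA, was in 2.76% of all windows and in 3.72% of those from 10 to 100. Of 44 ribosomal protein promoters, 20.5% have a C and 4 pyrimidines at the annotated start, against 2.34% of all promoters. This is the beginning of the terminal oligopyrimidine tract known to control translation of ribosomal protein genes. Only the annotated start base was read, so tracts that begin at another base are missed, and 20.5% is no measure of how many of these genes hold one.

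Promoters that hold a TATA box within 50 bases before the start are shown for 3 such genes, chosen by rank of level from the chromosomes read for this, 250 bases up to the start, 5′ to 3′ on the strand of the gene, with the match in capitals. Fos lies on the + strand, Sgk1, a kinase induced by steroid hormones, on the + strand, and Ddx5, an RNA helicase gene, on the - strand. The first base of the match lies 33, 11 and 30 bases before the start, and the mean levels are 3089, 1527 and 1240 length-scaled units.
Fos chr12:85473640-85473889: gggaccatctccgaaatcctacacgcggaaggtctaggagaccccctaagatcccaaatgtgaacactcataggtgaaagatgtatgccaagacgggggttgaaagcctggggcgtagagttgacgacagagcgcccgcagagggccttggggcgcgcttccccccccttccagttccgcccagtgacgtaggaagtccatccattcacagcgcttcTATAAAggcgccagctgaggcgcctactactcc
Sgk1 chr10:21994416-21994665: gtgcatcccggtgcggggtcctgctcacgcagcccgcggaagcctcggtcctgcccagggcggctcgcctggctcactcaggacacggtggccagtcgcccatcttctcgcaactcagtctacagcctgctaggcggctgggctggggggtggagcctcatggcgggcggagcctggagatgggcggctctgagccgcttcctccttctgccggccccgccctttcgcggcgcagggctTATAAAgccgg
Ddx5 chr11:106788495-106788744: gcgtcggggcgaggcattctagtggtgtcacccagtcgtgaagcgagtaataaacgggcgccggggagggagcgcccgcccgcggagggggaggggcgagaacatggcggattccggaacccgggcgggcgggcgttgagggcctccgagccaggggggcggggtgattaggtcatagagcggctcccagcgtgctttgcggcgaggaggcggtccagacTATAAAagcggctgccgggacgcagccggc

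Promoters that hold the PU.1 core in the same window are shown for 3 such genes, chosen by rank of level from the chromosomes read for this. Ptgs1 encodes the constitutive cyclooxygenase that starts prostaglandin synthesis, Rpl13a a ribosomal protein, and Inpp5d the lipid phosphatase SHIP1, which restrains signalling of immune receptors. Ptgs1 and Inpp5d lie on the + strand and Rpl13a on the - strand, where the match is to the reverse complement. The first base of the match lies 24, 44 and 20 bases before the start, and the mean levels are 848, 819 and 605 length-scaled units.
Ptgs1 chr2:36230176-36230425: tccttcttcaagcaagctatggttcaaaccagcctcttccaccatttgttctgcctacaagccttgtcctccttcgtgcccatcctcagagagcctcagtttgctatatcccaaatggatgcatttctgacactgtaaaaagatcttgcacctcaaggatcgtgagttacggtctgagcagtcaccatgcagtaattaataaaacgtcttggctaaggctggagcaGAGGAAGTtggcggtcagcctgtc
Rpl13a chr7:45128746-45128995: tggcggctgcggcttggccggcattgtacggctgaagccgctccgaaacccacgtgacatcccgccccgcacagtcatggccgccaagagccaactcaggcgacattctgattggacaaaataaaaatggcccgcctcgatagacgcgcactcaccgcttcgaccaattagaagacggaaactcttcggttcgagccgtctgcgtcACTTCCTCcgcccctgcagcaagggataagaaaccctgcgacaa
Inpp5d chr1:87620062-87620311: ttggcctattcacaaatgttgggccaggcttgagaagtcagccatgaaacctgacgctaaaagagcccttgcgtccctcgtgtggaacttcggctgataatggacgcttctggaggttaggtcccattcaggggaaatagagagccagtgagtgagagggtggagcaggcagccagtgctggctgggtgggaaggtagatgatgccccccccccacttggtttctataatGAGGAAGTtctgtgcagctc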

How the data were processed

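Sorted microglia RNA was sequenced in 3 libraries labelled WT, which alone were used here. Per the submitters' processing notes, the genome was GRCm38 (mm10) and the tools named are DESeq2 1.26.0, HOMER 4.11.1, STAR 2.7.1a and Trimmomatic 0.39; strandedness and multi-mapping are not given in the sources used here. The deposited signal is a count divided by a factor per library: 100% of the values lay within 0.1 of a whole multiple of 0.5065, 0.4451 and 0.6029 in A, B and C, and the whole reads were recovered. Low counts up to 200 were even in 58.2% to 60.1% of cases, those above 1000 in 49.1% to 50.3%. Coordinates count from 1; annotation came from GENCODE M21, which holds the transcript named in 99.19% of the 55421 rows. One row per symbol was kept, which left out 117 rows.

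The labels give 1 group and no test was made. Spread was computed with Python 3.11.15 and edgeR 4.0.16 (R 4.3.3; trimmed-mean factors, intercept only) and tested on simulated data. Length-scaled levels use the deposited length column. Shared words are 50 bases long, on either strand. No multiple-test adjustment applies.

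The 19 gene lists and 14 marker lists, and the choice of libraries, were made with earlier results of these data known. Genes named are the 20 highest on each scale, the 12 with the largest ratio between libraries at a mean above 100 and the 12 with the smallest CV at a mean above 1000 (gene models left out), up to 6 of the highest of each list, members without reads, and Qk. Others were chosen after their values were seen. Alternatives were other thresholds, filters, scalings, rows, motif windows and bands, and each library left out; those chosen after seeing the data were leaving out short rows or rows sharing bases, leaving out libraries for the marker sums, and read pairs in place of reads. A few genes that the rule selects are not reported here.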

Additional observations from a re-analysis of the deposited data

How the results depend on the processing

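No paired analysis was possible because the result comes from no test and the 3 libraries form 1 group. Of 83 alternatives, 50 left a value within its spread between libraries, its interval or, for counts, within 1.5 times. The number of detected genes did so under all 9 of its own. No such limit was set for the median CV, the biological coefficient of variation and the median ratio of marker sums. For these any change, however small, was counted as outside. Without division by length, the 100 highest genes held 27.2%, mitochondrial genes 0.790%, ribosomal protein genes 1.57%, long non-coding RNA genes 1.75% and microRNA genes 0.0947%. The 216 genes differing 2-fold or more became 1714 with a mean above 10, 15 with a mean above 1000, 560 at 1.5-fold and 116 at 3-fold, and 28 to 214 with a library left out, 28 being without C. The median CV of 6.84% became 8.88% above a mean of 10, 5.68% above 1000, 21.5% without a filter, 6.77% with TMM and 6.70% with median-of-ratios factors, and 5.41% to 5.80% with a library left out. The biological coefficient of variation of 16.2% became 16.1% with RLE factors, 17.98% without a filter and 12.3% on read pairs, and 10.7% to 19.3% with a library left out. The median ratio of the highest to the lowest marker sum, 1.75, became 1.82 on length-scaled sums, 1.67 with TMM factors and 2.21 without each list's highest member, and 1.24 (without C) to 1.70 with a library left out. In the bases before the start alone, the share from 10 to 100 was 7.93% for the ETS core, 5.64% for the NRF1 core and 3.05% for the cAMP response element, in a shorter window. Depth limits genes near 3 reads.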
